A study of Mus musculus with 6 samples.

Results

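Bile acid synthesis and its feedback through the farnesoid X receptor (FXR) were examined as 10 genes of mouse liver, out of 55487 genes in the count table. The 10 genes are the cytochrome P450 enzymes of the classic and alternative pathways (Cyp7a1, Cyp8b1, Cyp27a1 and Cyp7b1), the enzymes that modify the sterol ring (Hsd3b7 and Akr1d1), the enzymes that conjugate bile acids (Slc27a5 and Baat), FXR itself (Nr1h4) and its target SHP (Nr0b2). They were taken as a fixed list of symbols, each of which matched 1 Ensembl gene of GRCm38. RNA-seq was performed on whole liver from male wild-type C57BL/6J mice that were fed a normal chow diet and killed at 17 weeks of age. Of these, 3 mice had received GalNAc-siNC, a control siRNA, and 3 had received GalNAc-siRnf10, an siRNA against the E3 ubiquitin ligase Rnf10, both by subcutaneous injection. Each siRNA carried the same sugar ligand, N-acetylgalactosamine, which binds the asialoglycoprotein receptor of hepatocytes, so that whole liver was sequenced but hepatocytes were the cells targeted. The dose and the injection dates of these 6 mice, and the hour at which their livers were taken, are not given in the sources used here.

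Hepatocytes convert cholesterol to bile acids, which is the main route by which the body disposes of cholesterol. In the classic pathway CYP7A1 adds the first hydroxyl group, at carbon 7, and this step sets the rate. In the alternative pathway CYP27A1 first oxidises the side chain and CYP7B1 then hydroxylates carbon 7. HSD3B7 and AKR1D1 rework the ring, CYP8B1 adds the hydroxyl group that makes cholic acid, and the coenzyme A ligase encoded by Slc27a5 and the transferase BAAT join the product to taurine or glycine. Bile acids in turn bind FXR, which induces SHP, a receptor without a DNA-binding domain that represses Cyp7a1 and Cyp8b1, and in the ileum FXR induces the hormone FGF15, which acts on the liver through FGFR4 and its coreceptor beta-Klotho.

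Total counts per library ranged from 26854377 to 33058645. The library of GalNAc-siNC mouse 1 stood apart from the other controls, with a chi-square per gene of 28.3 and 27.5 against mice 2 and 3, which differed from each other by 9.67. In the GalNAc-siRnf10 group these values lay between 4.50 and 5.12. Results without that mouse are therefore given for some of the genes. Rnf10 fell from a normalized count of 4148 ± 347 to 1784 ± 41.8 (mean ± SD, n = 3 mice in each group), at a log2 fold change of -1.22 (standard error 0.0715, edgeR adjusted p = 3.29e-09), in the direction that the labels give. The hepatocyte markers Alb and Ttr were abundant in every library. Normalized counts are counts scaled by the TMM method to a library of average size (TMM is edgeR's trimmed mean of M values), and RPKM values are the counts divided by gene length and scaled library size, which allows levels of different genes to be compared.

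Of the 10 genes, 9 passed the filter on low counts and were tested, and 6 of these 9 were called as different between the groups. A gene was called where the p of the quasi-likelihood test of edgeR, adjusted by Benjamini-Hochberg over all 14046 genes tested, was below 0.05. Of all genes tested, 14.0% were called. Cyp7a1, Nr0b2, Akr1d1, Baat and Cyp27a1 rose in GalNAc-siRnf10-treated mice, where 6.71% of all genes tested were called higher, and Cyp7b1 fell, where 7.28% were called lower. Cyp8b1, Slc27a5 and Nr1h4 were not called. In whole liver, a change in the share of a cell type and a change in RNA per cell cannot be told apart. The median log2 fold change of the 9 genes was 0.21, against 0.0022 over all genes tested. The lowest and highest mice of the groups did not overlap in any of the 9 genes, which held for 32.8% of all genes tested. For a single gene the exact two-sided permutation test of 3 mice against 3 cannot give a p below 0.1, and it gave p = 0.1 for each of the 9.

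**Figure D1:**
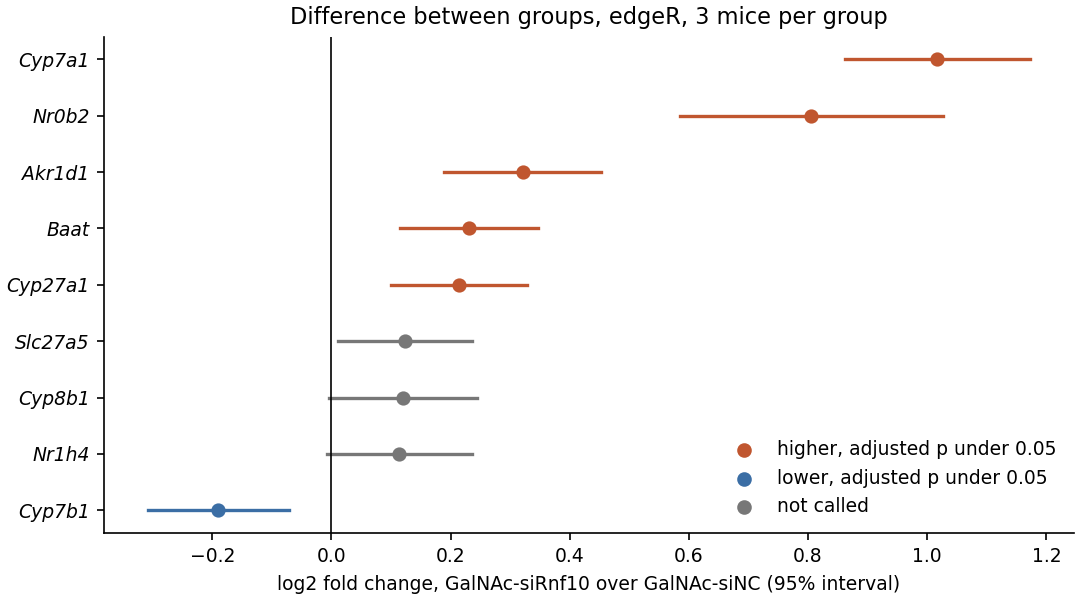
Log2 fold change of each tested gene (horizontal axis, GalNAc-siRnf10 over GalNAc-siNC, 3 mice per group) with its 95% interval from the edgeR fit. Cyp7a1 and Nr0b2 lie furthest to the right, at 1.02 and 0.81, and Cyp7b1 is the only gene left of 0, at -0.19.

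Cyp7a1 (ENSMUSG00000028240), the gene of the first and rate-setting enzyme of the classic pathway, is encoded on chromosome 4 (GRCm38, 6265612 to 6275633, minus strand). The control mice had normalized counts of 7994, 6296 and 6986, and the GalNAc-siRnf10 mice had 13998, 14452 and 14608. Every treated mouse therefore stood far above every control, and the controls varied more among themselves, with a coefficient of variation of 12% against 2.21%. The mean rose from 7092 ± 854 to 14353 ± 317 (mean ± SD, n = 3 mice in each group), which is 2.02-fold. The log2 fold change was 1.02 (standard error 0.0731, 95% interval 0.86 to 1.17, edgeR adjusted p = 5.86e-08). It was the only one of the tested genes with a log2 fold change above 1. Without GalNAc-siNC mouse 1, whose Cyp7a1 count was the highest of the controls, the log2 fold change was 1.11.

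Akr1d1 encodes the 5-beta-reductase that gives the sterol rings of bile acids their bent shape. It is on the plus strand of chromosome 6 from 37530173 to 37568815 (ENSMUSG00000038641). The normalized count was 5294, 4779 and 5119 in the controls and 6659, 6137 and 6188 in the treated mice, again with no overlap between the groups. It rose 1.25-fold, with a log2 fold change of 0.32 (standard error 0.0622, edgeR adjusted p = 0.00186).

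Cyp8b1 encodes the 12-alpha-hydroxylase, which directs the classic pathway to cholic acid, and is a gene of 1 exon (ENSMUSG00000050445) on the minus strand of chromosome 9 from 121914356 to 121916305. Its normalized counts were 9739, 11123 and 10209 with GalNAc-siNC and 11156, 11454 and 11150 with GalNAc-siRnf10. The highest control and the lowest treated mouse were thus almost equal. The log2 fold change was 0.12 (95% interval -0.0046 to 0.24, edgeR adjusted p = 0.205), so Cyp8b1 was not called, and the interval spans from no rise to a rise of 1.18-fold. The call depended on 1 control, since without GalNAc-siNC mouse 2, the highest of the controls, the adjusted p was 0.0393 and the log2 fold change 0.17.

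Hsd3b7, which encodes the 3-beta-hydroxysteroid dehydrogenase that follows CYP7A1 and CYP7B1, was listed at 0 in all 6 libraries and was not tested. A count of 0 allows at most 3 counts, or between 9.07e-06% and 1.12e-05% of a library, by counting error alone, but this is a limit on the counts assigned to the gene and not on its mRNA. The gene model of Hsd3b7 (ENSMUSG00000042289, plus strand of chromosome 7, 127800604 to 127803802) holds 2769 exon bases, of which 1717 are shared with Gm49388 on the same strand and 1729 with 9430064I24Rik on the opposite strand. With strand taken into account 1052 bases belong to Hsd3b7 alone, and without it only 23 bases do. Gm49388 was also listed at 0 in every library, and 9430064I24Rik had between 4 and 11 counts. The source of the zeros was not tested, and these counts give no level for this step. None of the exon bases of the other 9 genes is shared with another gene of the count table.

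Cyp27a1 and Cyp7b1, which act one after the other in the alternative pathway, moved in opposite directions. Cyp27a1 encodes the mitochondrial sterol 27-hydroxylase, which also oxidises the side chain in the classic pathway. It lies on the plus strand of chromosome 1 from 74713574 to 74737892 (ENSMUSG00000026170). Its normalized count was 12307, 13315 and 12318 in the controls and 14660, 14810 and 14557 in the treated mice, a rise of 1.16-fold (log2 fold change 0.21, standard error 0.0541, edgeR adjusted p = 0.0127). Cyp7b1 encodes the oxysterol 7-alpha-hydroxylase and lies on the minus strand of chromosome 3 from 18071950 to 18243338 (ENSMUSG00000039519). Its normalized count was 21054, 18715 and 20348 with GalNAc-siNC and 17806, 17630 and 17277 with GalNAc-siRnf10, which gave a log2 fold change of -0.19 (standard error 0.0558, edgeR adjusted p = 0.031). The mean fell from 20039 ± 1200 to 17571 ± 269 (mean ± SD, n = 3 mice in each group), or by 12.3%. The groups did not overlap in either gene, but the differences were small beside that of Cyp7a1. Both calls were lost when 1 mouse was left out, in 4 of the 6 cases (GalNAc-siNC mouse 3 or any of the treated mice), where the adjusted p reached 0.0929 for Cyp27a1 and 0.172 for Cyp7b1. DESeq2 on the same genes did not call Cyp7b1 (adjusted p = 0.0603), while the correction for GC content and gene length gave it a log2 fold change of -0.33.

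Conjugation was represented by 2 genes. Baat (ENSMUSG00000039653, minus strand of chromosome 4, 49489422 to 49506557), whose product joins bile acids to taurine in mice, had a normalized count of 7226, 6932 and 6981 in the controls and 8450, 8154 and 8203 in the treated mice. It rose 1.17-fold (log2 fold change 0.23, standard error 0.0547, edgeR adjusted p = 0.00867), but once GC content and gene length were corrected for, the log2 fold change was 0.10 and the call was lost (edgeR adjusted p = 0.127). The call was also lost when any 1 treated mouse was left out, with an adjusted p between 0.0521 and 0.0893. Slc27a5 (ENSMUSG00000030382, minus strand of chromosome 7, 12988346 to 12998192), the bile acid ligase, had a normalized count of 24679, 27068 and 25759 in the controls and 28929, 27805 and 27714 in the treated mice. The log2 fold change was 0.12 (95% interval 0.012 to 0.24, edgeR adjusted p = 0.141) and the gene was not called. Without GalNAc-siNC mouse 2, the highest of the controls for this gene, the log2 fold change was 0.16 and the adjusted p was 0.0436.

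Nr1h4 and Nr0b2 encode the bile acid receptor and the repressor that it induces. Nr1h4 (FXR, ENSMUSG00000047638, minus strand of chromosome 10, 89454234 to 89533585) had a normalized count of 4597, 4477 and 4427 in the controls and 4824, 4929 and 4860 in the treated mice. Its log2 fold change was 0.11 (95% interval -0.0078 to 0.24, edgeR adjusted p = 0.219), and it was not called. Nr0b2 (SHP, ENSMUSG00000037583, plus strand of chromosome 4, 133553376 to 133556536) had a normalized count of 266, 306 and 291 in the controls and 509, 512 and 489 in the treated mice. It rose 1.75-fold, from 288 ± 20.2 to 503 ± 12.4 (mean ± SD, n = 3 mice in each group), with a log2 fold change of 0.81 (standard error 0.104, 95% interval 0.58 to 1.03, edgeR adjusted p = 4.19e-05). The counts behind Nr0b2 were between 295 and 535 per library, the lowest of the 9 genes. Cyp7a1 and the repressor SHP were therefore both higher in the same livers.

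The promoters of 6 of the 10 genes are held in RefSeq's GRCm38.p6 set of windows from 250 bases before to 50 bases after the annotated start. Those of Nr0b2 and Akr1d1 are shown because both genes stayed called whichever mouse was left out and both windows held a match to a searched motif. The 250 bases before the start are printed 5′ to 3′ on the plus strand, chr4:133553126-133553375 for Nr0b2 and chr6:37529923-37530172 for Akr1d1, and capitals mark the matches.
Nr0b2: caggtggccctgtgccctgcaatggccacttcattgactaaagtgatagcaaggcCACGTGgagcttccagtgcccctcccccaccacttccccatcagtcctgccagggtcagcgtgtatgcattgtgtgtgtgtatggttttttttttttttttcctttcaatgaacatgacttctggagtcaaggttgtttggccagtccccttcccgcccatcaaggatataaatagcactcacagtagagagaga
Akr1d1: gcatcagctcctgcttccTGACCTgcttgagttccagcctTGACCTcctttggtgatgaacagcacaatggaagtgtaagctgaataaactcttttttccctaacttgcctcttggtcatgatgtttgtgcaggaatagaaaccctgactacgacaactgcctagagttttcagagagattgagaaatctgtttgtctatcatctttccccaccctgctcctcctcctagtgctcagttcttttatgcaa

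The motifs were searched on both strands. Nr0b2 held the E-box CACGTG, the recognition sequence of the clock factors CLOCK and BMAL1, from position -195, and 7.15% of the 32851 RefSeq promoter windows held one. Akr1d1 held the nuclear receptor hexamer AGGTCA on the minus strand from positions -232 and -210, and Nr1h4, whose RefSeq window from 89506609 lies within the GENCODE gene, held one from position -214, a motif found in 16.3% of the windows. The longer sites searched, the FXR inverted repeat (0.0091%), its shorter core GGTCANTGA (0.84% of windows), the direct repeat bound by HNF4A (0.0396%), the NR5A2 sites AAGGTCA (4.72%, which contains the hexamer) and CAAGGTCA (1.56%, which contains both), and the D-box TTATGTAA (0.938%), matched none of the 6 windows. The windows of Cyp27a1, Cyp8b1 and Hsd3b7 held none of these motifs. A match is a description of these letters only. Cyp7a1, Cyp7b1, Slc27a5 and Baat were not searched.

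**Figure D2:**
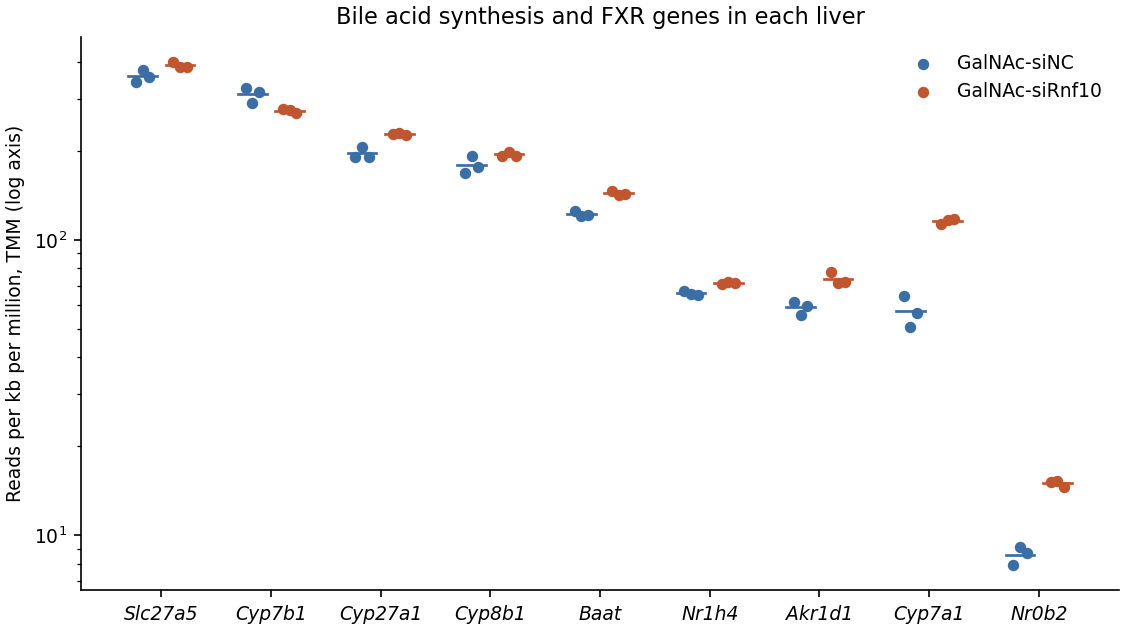
RPKM (vertical log axis, TMM-scaled) of the 9 genes with counts in each of the 6 livers, with GalNAc-siNC in blue, GalNAc-siRnf10 in orange-red, 1 point per mouse and a line at the mean of 3 mice. Cyp7a1 moves from the level of Akr1d1, 57.3, to 115.9, above Nr1h4 and Akr1d1.

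In level per length, Slc27a5 was the most abundant of the 9 genes in controls, at 357 ± 16.5 RPKM (SD, n = 3 mice), followed by Cyp7b1 at 312 ± 18.7, Cyp27a1 at 196 ± 8.98, Cyp8b1 at 179 ± 12.2, Baat at 122 ± 2.74, Nr1h4 at 65.9 ± 1.28, Akr1d1 at 59.0 ± 3.05, Cyp7a1 at 57.3 ± 6.90 and Nr0b2 at 8.58 ± 0.601. Between neighbours in this order the mice overlapped for Cyp27a1 and Cyp8b1 and for Akr1d1 and Cyp7a1, and not for the others. In GalNAc-siRnf10 mice Cyp7a1 stood sixth, at 115.9 ± 2.56 RPKM, with no mouse overlapping Baat above it or Akr1d1 below it, while Akr1d1 and Nr1h4 overlapped. The summed level of the 9 genes was between 1351 and 1366 RPKM in controls and between 1489 and 1520 in treated mice. Cyp7a1 took 4.22% of that sum in controls and 7.71% in treated mice on average, and Cyp7b1 took 23.0% and 18.2%.

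Ratios between genes within a liver do not depend on how libraries are scaled. The log2 ratio of Cyp7a1 to Cyp7b1, the carbon 7 hydroxylases of the classic and alternative pathways, was -1.40, -1.57 and -1.54 in the controls and -0.35, -0.29 and -0.24 in the treated mice, a difference of 1.21. The log2 ratio of Cyp8b1 to Cyp7a1 was 0.28, 0.82 and 0.55 in the controls and -0.33, -0.34 and -0.39 in the treated mice, a difference of -0.90. More Cyp8b1 than Cyp7a1 reads were thus counted in every control and fewer in every treated mouse. The gene model of Cyp7a1 is longer, at 4174 against 1950 bases. Per length, Cyp8b1 stayed above Cyp7a1 in every mouse, 2.61-, 3.78- and 3.13-fold in the controls and 1.71-, 1.70- and 1.63-fold in the treated mice. The log2 ratio of Nr0b2 to Nr1h4 was -4.11, -3.87 and -3.92 in the controls and -3.25, -3.27 and -3.31 in the treated mice, a difference of 0.69. The groups did not overlap in any of the 3 ratios (exact two-sided permutation test, p = 0.1 for each, the smallest that 3 mice against 3 allow, so no correction over the 3 ratios can bring it under 0.05).

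**Figure D3:**
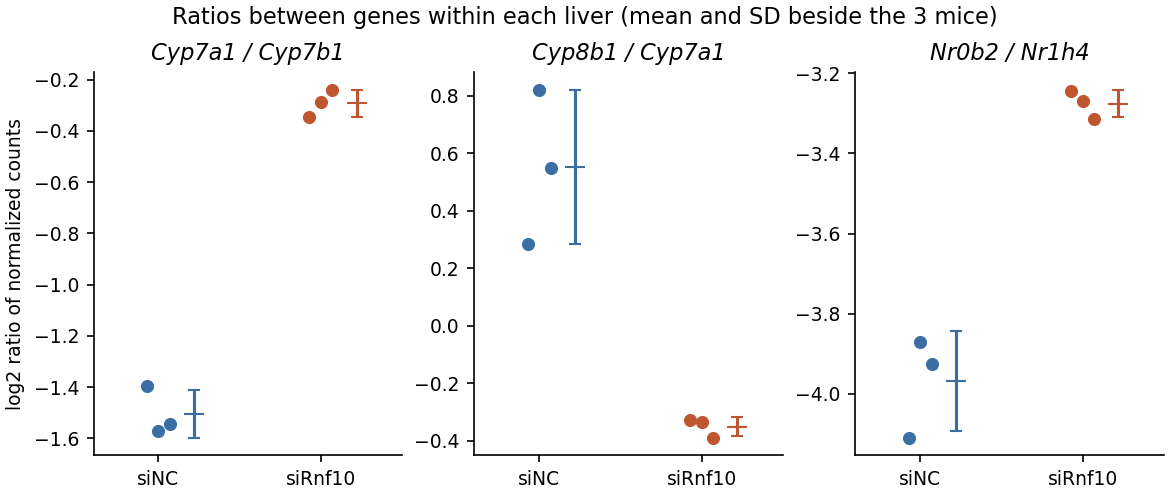
Log2 ratio of normalized counts (vertical axes, separate scales) of Cyp7a1 to Cyp7b1, Cyp8b1 to Cyp7a1 and Nr0b2 to Nr1h4 in each mouse, with the mean and SD of 3 mice beside the points. The groups are separate in each panel, with differences of 1.21, -0.90 and 0.69.

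Other genes of the pathway were grouped in lists of which some share members. As a background for their counts, edgeR called 14.0% of all genes tested, 6.71% higher and 7.28% lower. An unadjusted p under 0.05 in edgeR was found for 26.7% (12.9% higher and 13.8% lower). DESeq2 on the same genes called 13.5% and limma voom called 16.5%. Of 6 further enzymes of ring and side-chain oxidation and of rodent bile acid forms, 5 were tested, 2 rose and none fell, by edgeR, DESeq2 or limma voom or at an unadjusted p under 0.05. Cyp39a1, the 7-alpha-hydroxylase of 24-hydroxycholesterol, rose from 282 ± 54.0 to 732 ± 39.0 (mean ± SD, n = 3 mice in each group), at a log2 fold change of 1.37 (standard error 0.122, edgeR adjusted p = 4.85e-07). Akr1c6, an aldo-keto reductase of steroids, rose from 28332 ± 1370 to 40209 ± 569 (mean ± SD, n = 3 mice in each group), with a log2 fold change of 0.51 (edgeR adjusted p = 3.06e-06). Cyp2c70, which makes the muricholic acids of rodents, had a log2 fold change of -0.081 and was not called. None of the 10 tested genes of peroxisomal side-chain shortening and conjugation was called by edgeR, DESeq2 and limma voom each called 1, and 2 had an unadjusted p under 0.05, a share below the 26.7% of all genes tested. Their median log2 fold change was -0.00071, and Acaa1b, a peroxisomal thiolase, had the largest estimate, 0.33 (edgeR adjusted p = 0.167). The normalized count of Acaa1b was 8014 in GalNAc-siNC mouse 1, against 11397 and 11024 in the other controls. In treated mice it was 12586, 13062 and 12650.

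**Figure D4:**
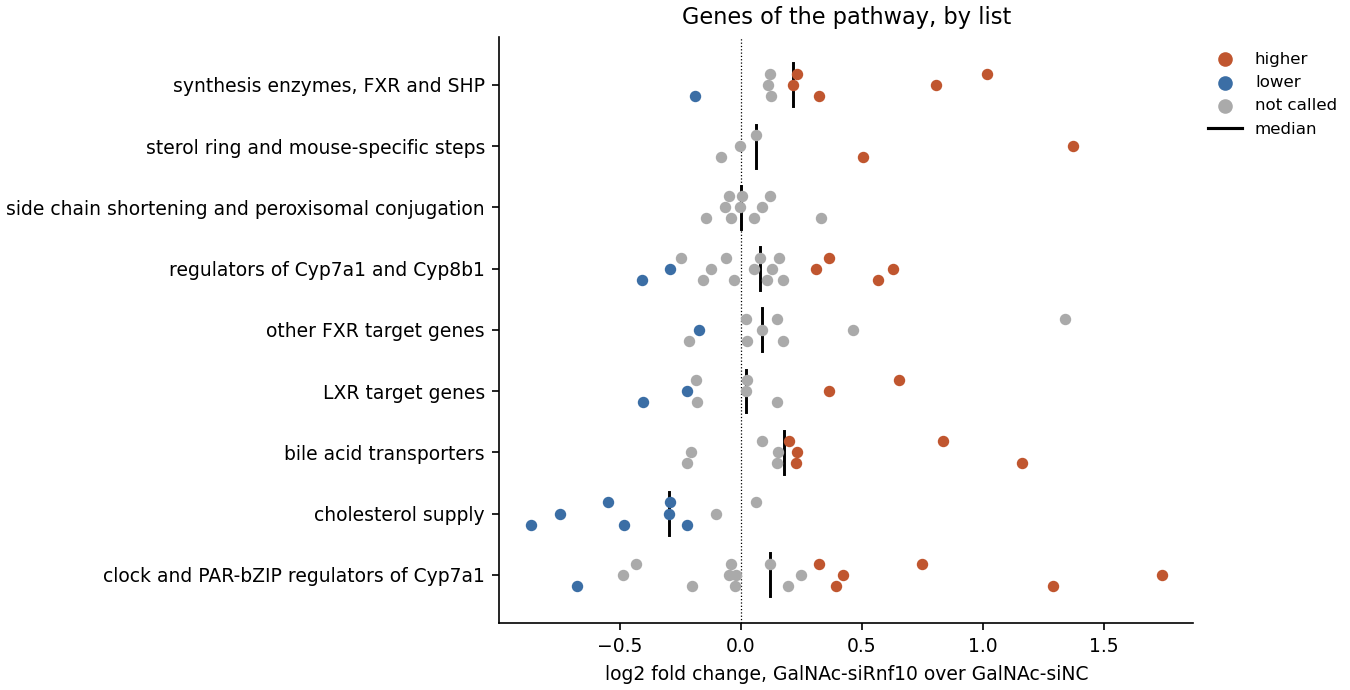
Log2 fold change (horizontal axis, GalNAc-siRnf10 over GalNAc-siNC) of every tested gene in 9 lists, with 1 point per gene, orange-red for genes called higher, blue for genes called lower, grey for genes not called, and a black bar at the median. The synthesis enzymes with FXR and SHP have a median of 0.21, the peroxisomal genes lie around 0, and the cholesterol supply genes have a median of -0.29.

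Of 18 regulators of Cyp7a1 and Cyp8b1, 17 were tested, 4 rose and 2 fell, with a median log2 fold change of 0.081. The xenobiotic receptors Nr1i3 (CAR, log2 fold change 0.63, edgeR adjusted p = 0.000174) and Nr1i2 (PXR, 0.37, adjusted p = 0.0066) and the insulin-regulated factor Foxo1 (0.57, adjusted p = 0.00011) rose. Zfp36l1, an RNA-binding protein known to promote decay of Cyp7a1 mRNA, fell from 2842 ± 168 to 2141 ± 13 (mean ± SD, n = 3 mice in each group), at a log2 fold change of -0.41 (edgeR adjusted p = 0.000421). The receptor complex for FGF15 split. Fgfr4 had a log2 fold change of -0.29 (adjusted p = 0.0472) and its coreceptor Klb of 0.31 (adjusted p = 0.0259), but leaving out 1 mouse ended the call of Fgfr4 in 5 of 6 cases and that of Klb in 4 of 6, and DESeq2 did not call Fgfr4. Hnf4a and Nr5a2, which activate Cyp7a1 and Cyp8b1, had log2 fold changes of 0.081 and -0.12 and were not called. With the correction for GC content and gene length, Hnf4a had a log2 fold change of 0.16 and was called.

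Other FXR target genes were tested in 9 of 12 cases. Kng1, a plasma kininogen, was called lower (log2 fold change -0.17, edgeR adjusted p = 0.0247), a call that DESeq2 on the same genes did not make and that leaving out 1 mouse ended in 4 of 6 cases. None was called higher by edgeR or DESeq2, while limma voom called 1 higher and 2 lower, and at an unadjusted p under 0.05 2 were higher and 2 lower. Abcb11, the bile salt export pump and a well-known FXR target, had a normalized count of 14759 ± 785 in controls and 16365 ± 169 in treated mice (SD, n = 3), a log2 fold change of 0.15 (edgeR adjusted p = 0.0835). Abcb11 was called by limma voom, with the correction for GC content and gene length, and without GalNAc-siNC mouse 1, where its log2 fold change was 0.19. Slc51b, a basolateral exporter, had 3 to 10 counts per library and was not tested, and Fgf15 had 0 counts in every library. Of the 9 tested target genes of LXR, the oxysterol receptor that induces Cyp7a1 in rodents, 2 rose and 2 fell. Lpl (log2 fold change 0.65, adjusted p = 0.000129) and the sterol exporter Abcg5 (0.36, adjusted p = 0.00398) rose, while Lpcat3 (-0.40, adjusted p = 0.000698) and Abca1 (-0.22, adjusted p = 0.0332) fell. Leaving out 1 mouse ended the call of Abca1 in 4 of 6 cases, and leaving out GalNAc-siRnf10 mouse 1 ended that of Abcg5.

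Of the 10 tested genes of bile acid and phospholipid transport 5 rose and none fell, led by Slco1a4 (log2 fold change 1.16, edgeR adjusted p = 2.72e-07) and the basolateral exporter Abcc3 (0.84, adjusted p = 3.76e-08). Leaving out 1 mouse ended the calls of Abcc2 (0.23), Slco1a1 (0.23) and Slco1b2 (0.20) in 5 of 6 cases each. At an unadjusted p under 0.05, 1 of the 10 was lower (Atp8b1, a phospholipid flippase, log2 fold change -0.22), and DESeq2 and limma voom called none lower. Cholesterol, the substrate of CYP7A1, is supplied by synthesis and uptake. The list for its supply also held genes of cholesterol transport within cells and of esterification. Of its 9 tested genes 7 fell while none rose, by edgeR, DESeq2 or limma voom or at an unadjusted p under 0.05. Hmgcs1 had a log2 fold change of -0.87 (edgeR adjusted p = 1.45e-08), Sqle of -0.74 (adjusted p = 3.3e-07), Cyp51 of -0.55 (adjusted p = 1.03e-05), the lipoprotein receptor Scarb1 of -0.48 (adjusted p = 9.18e-05) and Sc5d of -0.29 (adjusted p = 0.00227).

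Cyp7a1 is known to follow a daily rhythm. Of 18 clock genes and PAR-bZIP factors 17 were tested, of which 6 rose, 1 fell and 10 were not called. Per1 rose from 351 ± 18.8 to 1171 ± 62.9 (mean ± SD, n = 3 mice in each group), at a log2 fold change of 1.74 (edgeR adjusted p = 6.64e-10). Ciart had a log2 fold change of 1.29 (adjusted p = 4.23e-07), Cry1 of 0.75 (adjusted p = 0.000992) and Per2 of 0.42 (adjusted p = 0.00159), and Nr1d1, which encodes the repressor REV-ERB-alpha, of -0.68 (adjusted p = 1.78e-05). Dbp, an activator of Cyp7a1, had a log2 fold change of 0.25 (adjusted p = 0.532) and was not called. The normalized count of Dbp was 1825 in GalNAc-siNC mouse 1, against 3119 and 2846 in the other controls. In treated mice it was 3102, 2993 and 3152. Across the alternatives the log2 fold change of Dbp ranged from 0.046 to 0.40. The part of the clock genes in the difference of Cyp7a1 was not tested, and a difference in the hour of collection cannot be told apart from the treatment here.

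Markers of other liver cells were measured in the same libraries, where edgeR called 6.71% of all genes tested higher and 7.28% lower. None of 8 Kupffer cell markers was called by edgeR, DESeq2 or limma voom, 2 were lower at an unadjusted p under 0.05, a share near the 26.7% of all genes tested, and their summed level was 76.3 to 87.8 RPKM in controls and 80.9 to 83.9 in treated mice. Of 7 sinusoidal endothelial markers 2 rose (Clec4g and Lyve1), with a summed level of 14.3 to 15.1 against 16.9 to 17.9 RPKM. Stab2 had an estimate in the other direction (log2 fold change -0.26, edgeR adjusted p = 0.0544) and was not called. At an unadjusted p under 0.05, 3 of the 7 were higher and 1 lower, and limma voom called 1 higher and 1 lower. The call of Lyve1 was lost with DESeq2, with limma voom, with the replicate number as a block and in 5 of 6 cases when 1 mouse was left out. Of 8 stellate cell markers 2 rose (Dcn and Reln), and the call of Reln was lost without GalNAc-siRnf10 mouse 1 or mouse 2. Lrat, Col1a1, Des and Acta2 had estimates in the other direction, Col3a1 and Ngfr had positive estimates, and none of these was called. The median log2 fold change of the 8 was 0.016. Their summed level was 16.5 to 16.9 against 18.8 to 19.2 RPKM. Dcn made up much of it, at a mean of 8.41 RPKM in controls and 10.8 in treated mice. Of 6 tested markers of cholangiocytes and gallbladder edgeR and DESeq2 called Spp1 alone and limma voom called 2. Spp1 fell (log2 fold change -0.90, edgeR adjusted p = 8.59e-08). The summed level of all 8 was 39.3 to 40.4 against 21.6 to 22 RPKM. Most of that sum was Spp1, at a mean of 37.5 RPKM in controls and 20.1 in treated mice. Krt19, Krt7 and Epcam, which define cholangiocytes, had 16 to 36 counts per library and were not called. Sox9 had a log2 fold change of -0.54 (edgeR adjusted p = 0.0555) and was not called either. The estimates of all 6 tested markers were negative, from -0.90 to -0.15, with a median of -0.37. Of the ileal markers, Fabp6, Cdx2 and Fgf15 had 0 counts in every library, and the summed level was 28.5 to 32.2 against 26.8 to 27.5 RPKM. Nearly all of that sum was Apoa4 (mean 22.1 against 18.7 RPKM) and Slc10a2 (8.18 against 8.33), and neither gene was called. Of 8 hepatocyte markers 5 rose, among them Tat (log2 fold change 1.41) and Alb (0.64), and their summed level, most of it Alb, was 26138 to 26849 against 38071 to 39363 RPKM. Leaving out 1 mouse ended the call of Serpina1c in 4 of 6 cases and that of Ttr without GalNAc-siNC mouse 2. The part of these shifts in the results for the bile acid genes was not tested.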

How the data were processed

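Liver RNA of 6 mice, 3 per group, was measured with 1 library per mouse, and groups and mouse numbers were taken from the sample titles. The values are raw read counts per gene, as the authors deposited them, from paired-end sequencing of stranded mRNA libraries. HISAT2 and DESeq2 are the tools that the submitters' processing notes name, and the reads were aligned to GRCm38. The deposited table also gives a length in bases for every gene, which was used for RPKM. The counting tool, annotation release and strand setting are not given in the sources used here.

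The tests were run with edgeR 4.0.16 (R 4.3.3), after filterByExpr on the treatment groups and TMM scaling, by the robust quasi-likelihood F-test with treatment as the only covariate, with Benjamini-Hochberg adjustment over all 14046 genes tested and a threshold of 0.05. Intervals are at 95% and use the degrees of freedom of that fit. Alternatives were RLE and upper-quartile scaling, no filter or at least 10 counts in every library, DESeq2 1.42.0, limma 3.58.1 voom with quality weights for each library, a block for the replicate number, leaving out the 20 most abundant genes, offsets for GC content and length (splines with 5 degrees of freedom each), stricter thresholds and leaving out each mouse. Symbols came from GENCODE M21 (GRCm38), with 260 of 55487 genes left without one, and 1 listed symbol, Stard1, was not matched. The steps were tested on simulated counts. Plots were made in matplotlib 3.10.9.

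The genes and lists were chosen with earlier results of these data known, and p-values were never adjusted over a list alone. All 10 genes are described. Of the other lists, at most the 5 called genes with the largest absolute log2 fold change are named, besides Fgfr4, Klb, Hnf4a, Nr5a2, Abcb11, Slc51b and Dbp. Cyp2c70, Acaa1b, Fgf15, Krt19, Krt7, Epcam, Fabp6, Cdx2, Stab2, Apoa4, Slc10a2 and Atp8b1 were named after their values were seen. The same holds for Sox9, Lrat, Col1a1, Des, Acta2, Col3a1 and Ngfr. Depth is given as total counts, and intervals of counts and floors cover counting error only.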

Additional observations from a re-analysis of the deposited data

How the results depend on the processing

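Cyp7a1 kept its direction and its call in every alternative, with a log2 fold change between 0.94 and 1.11, and no alternative reversed the direction of any called gene or ratio reported. With an adjusted p under 0.01, 1042 genes were called (502 higher, 540 lower), 4 of the 9 tested bile acid genes among them and 0 of these lower, because Cyp27a1 (0.21) and Cyp7b1 (-0.19) were lost. When calls also needed a log2 fold change of 1 or more in size, 227 genes were called (134 higher, 93 lower) and 1 of the 9, with Cyp27a1 (0.21), Cyp7b1 (-0.19), Akr1d1 (0.32), Baat (0.23) and Nr0b2 (0.81) below the limit. DESeq2 on the same genes called 1896 genes and 5 of the 9, with 0 lower (Cyp7b1, -0.19), and with every counted gene entered DESeq2 called 6. With the offsets for GC content and length, Baat moved to 0.10 and lost its call, Cyp7b1 moved to -0.33 and Nr1h4 to 0.023, and the difference in the ratio of Cyp7a1 to Cyp7b1 moved to 1.32. With the offsets and the replicate block together, Baat was at 0.10. The causes were not tested.

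With 1 mouse left out, between 1053 and 2864 genes were called (520 to 1395 higher, 533 to 1469 lower), between 3 and 8 of the 9 (3 to 7 higher, 0 to 1 lower). The log2 fold change ranged from 0.19 to 0.25 for Cyp27a1, from -0.24 to -0.15 for Cyp7b1, from 0.22 to 0.25 for Baat, from 0.076 to 0.17 for Cyp8b1 and from 0.090 to 0.16 for Slc27a5. Without any 1 treated mouse, 3 of the 9 were called, and without GalNAc-siNC mouse 2 it was 8.

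Mice of the same number in both groups are different animals, and their deviations from the group means were correlated by -0.00099, 0.027 and -0.034, so the number does not pair them, and not every mouse correlated best with its own number. With the replicate block 1816 genes were called, and 6 of the 9.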
